A study of Homo sapiens with 12 samples.

Results

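The genes described here are the early lasting risers after ANLN siRNA: 45 genes whose transcripts were more abundant in siANLN cells than in siNC cells both 24 h and 48 h after transfection. A gene had to be listed in both count tables, reach a mean of at least 10 CPM (a gene's count over the total of its library, on the usual CPM scale) over the 6 libraries of each time, and have a log2 ratio of mean siANLN CPM to mean siNC CPM of at least 0.5 at both times. Of 35484 gene IDs in both tables, 8860 reached that level, and 77 of these also reached the ratio at both times. The rule then left out 32 by name (symbols starting with ZNF, SLC, LINC or SNHG, and 9 further named genes), which left 45. Because the change between siANLN and siNC chose them, that change is given below as a description, without a test.

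KYSE150, an established cell line of oesophageal squamous cell carcinoma labelled as wild type, received either siANLN, an siRNA directed at ANLN, or siNC, the control siRNA. Poly(A) RNA was sequenced after 24 h or 48 h, giving the groups siANLN 24 h, siNC 24 h, siANLN 48 h and siNC 48 h with 3 libraries each. The series' title places the data in a study of nuclear ANLN, the clustering of RNA polymerase II at initiation and the genes that depend on it. Every library came from cells given one of the siRNAs, and the labels name 1 siRNA per arm. What belongs to siANLN and what to siNC therefore cannot be told apart. The labels call the libraries biological replicates without saying whether they came from separate transfections, so p-values measure the spread between these libraries, which may be technical.

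ANLN encodes anillin, a scaffold that binds actin, myosin and septins in the contractile ring of dividing cells. A small interfering RNA is loaded into an Argonaute protein and directs it to a fully matching transcript, which is cleaved. A short stretch near the 5′ end of the guide, its seed, can also pair with partly matching sites in the 3′ untranslated regions (3′ UTRs) of other transcripts and lower them, for a control siRNA as well as for a targeting one.

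Earlier work on these data had noted a pair of overlapping 7-base words, TCGGAGA and CGGAGAA, in genes that were higher in siANLN cells, and another pair, TTCCCAA and TCCCAAA, in genes that were lower. They were therefore looked up in the risers. The windows printed next, read 5′ to 3′ on the transcript strand with T in place of U, are all 9 sites of TCGGAGA in the risers' longest annotated 3′ UTRs, followed by the site of CDK6, the most abundant riser by CPM, and by 1 of the 7 sites of OGFR, the riser with the largest change at 24 h, which lie before its 3′ UTR. The capitals mark the word, which is TCGGAGA or the overlapping word CGGAGAA, and where a site holds both, the merged form of 8 bases.
ZW10: ttctgagcaaaTCGGAGAtattttagggg
PCNX3: ttttttgtgctTCGGAGAcatcagaatta
SETD7: ctgtaccacatTCGGAGAtgccaaatgat
BICD2: tagctttagacTCGGAGAtgagtgctttg
KDM2B, first site: agacattcctgTCGGAGAggagggtggac
KDM2B, next site: gagggtggactTCGGAGAAattctcatact
NUDCD3: gttctagttgtTCGGAGAAagcctaggttc
HSDL2: aatgtgactgtTCGGAGAtgaggccttta
VOPP1: aggacatttaaTCGGAGAAcctcctgggga
CDK6: agctgatcctgCGGAGAAcacccttggtg
OGFR: ccgagagcccaTCGGAGAccccaggcccc

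On GRCh38 the windows on the minus strand are ZW10 at chr11:113733289-113733317, SETD7 at chr4:139511359-139511387, BICD2 at chr9:92712923-92712951, KDM2B at chr12:121430010-121430038 and chr12:121429990-121430019, NUDCD3 at chr7:44385360-44385389, VOPP1 at chr7:55471341-55471370 and CDK6 at chr7:92615092-92615120. Those on the plus strand are PCNX3 at chr11:65637390-65637418, HSDL2 at chr9:112471317-112471345 and OGFR at chr20:62813219-62813247. All except that of OGFR lie in the last, untranslated part of the transcript, at distances from the stop codon that run from 31 bases in CDK6 to 2214 bases in BICD2. The 7 sites of OGFR follow each other at intervals of 60 bases. The 8-base form occurs in the 3′ UTRs of 3 risers, KDM2B, NUDCD3 and VOPP1.

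Either word of the rising pair was found in the longest 3′ UTR of 12 of the 45 risers, 26.7% (exact 95% binomial interval 14.6 to 41.9%). Among all genes past the level filter with an annotated 3′ UTR the share was 361 of 8678, 4.16% (3.75 to 4.6%). It was 8 of 32, 25.0%, among the risers left out by name, and 2 of 34, 5.88%, among the genes found by the mirrored rule (log2 ratio of at most -0.5 at both times, with the same names and ANLN left out). TCGGAGA alone was in 8 risers, 17.8%, against 2.15% of genes past the level filter, and CGGAGAA in 7 risers, 15.6%, against 2.65%. As the words were picked on these data, the shares are a description and carry no test. The 12 holders are ZW10, GXYLT1, PCNX3, SETD7, BICD2, KDM2B, NUDCD3, HIST1H2BD, HSDL2, VOPP1, KLHDC10 and CDK6, and KDM2B and KLHDC10 hold 2 sites each.

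The other pair of words was most frequent in the fallers. TTCCCAA or TCCCAAA was in the longest 3′ UTR of 8 of 45 risers, 17.8%, and of 26 of 34 mirrored fallers, 76.5% (58.8 to 89.3%). It was in 2841 of 8678 genes past the level filter, 32.7%. The risers left out by name did not share the low value of the 45, with 12 of 32, 37.5%. Before the 3′ UTR, in the rest of the same transcript, 15 of 45 risers held a word of the rising pair, 33.3%, against 17.5% of genes past the level filter and 11.8% of the fallers. In 22 risers neither rising word was found anywhere in the transcript, a count that was not made over genes past the level filter. Risers with a word in the 3′ UTR (12) had a median log2 ratio of 0.66 at 24 h and 0.95 at 48 h, and those without one (33) had 0.59 and 0.85. Their ranges overlapped, at 0.51 to 1.01 with a word and 0.50 to 1.25 without one at 24 h. OGFR, RGS19 and STX12, the risers with the largest smaller-of-both log2 ratios, have neither word in the 3′ UTR. No mature human miRNA of the 2370 in the RefSeq table has a seed (bases 2 to 8) complementary to TCGGAGA or CGGAGAA. Of the falling pair, TTCCCAA is complementary to the seed of 1, hsa-miR-450a-1-3p, and TCCCAAA to that of 0. The sequences of siANLN and siNC are not given in the sources used here, so the words could not be set against their seeds, and a seed effect of either siRNA was not tested.

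**Figure D1:**
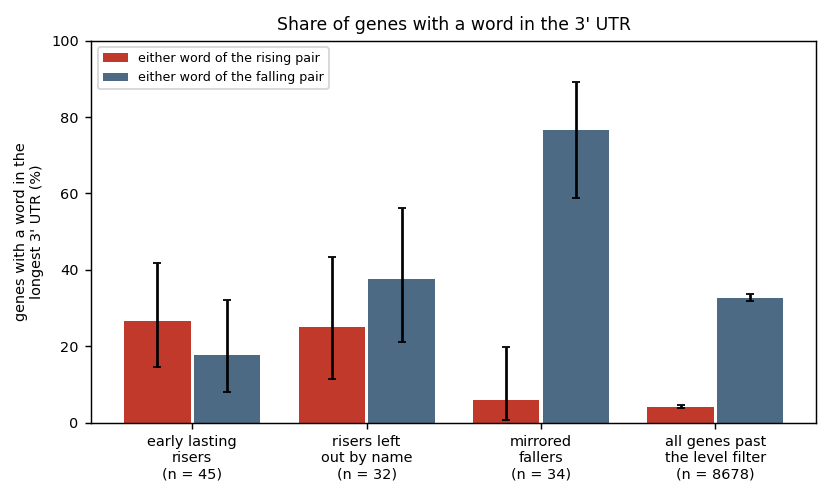
Percentage of genes with either word of the rising pair (TCGGAGA or CGGAGAA, red) or of the falling pair (TTCCCAA or TCCCAAA, blue) in the longest annotated 3′ UTR, for 4 sets of genes, with exact 95% binomial intervals as lines. The rising pair stands at 26.7% in the 45 risers and 4.16% in all genes past the level filter. The falling pair stands at 76.5% in the 34 mirrored fallers and 17.8% in the risers. It stands at 37.5% in the risers left out by name and 32.7% in all genes past the level filter.

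The 6 libraries of 24 h held 14891932 to 17921808 counts each, and the 6 of 48 h held 11805488 to 12448411, so that the limit of 10 CPM stood for 118.1 to 179.2 reads per library. ANLN itself (a gene outside the set) had 103 ± 6.18 CPM in siANLN cells and 891 ± 19.6 CPM in siNC cells at 24 h, and 79.6 ± 5.28 CPM in siANLN cells and 738 ± 9.46 CPM in siNC cells at 48 h (mean ± SD, n = 3). Its log2 change was -3.11 (SE 0.04, edgeR adjusted p = 1.3e-66) at 24 h and -3.18 (SE 0.03, edgeR adjusted p = 9.2e-274) at 48 h. Of 13 squamous markers 12 passed the level filter, as the label of the line has it, and 0 of 15 markers of blood, endothelial, stromal, liver or neural cells did. The squamous markers summed to 4939 to 5119 CPM in siANLN cells and 5707 to 5989 CPM in siNC cells at 24 h, and to 4047 to 4100 CPM in siANLN cells and 6481 to 6709 CPM in siNC cells at 48 h, and the part of this difference in the risers' values was not tested. The 12 markers of other cell types in both tables summed to 7.42 to 7.83 CPM in siANLN cells and 7.14 to 10.2 CPM in siNC cells at 24 h, and to 74.0 to 76.8 CPM in siANLN cells and 57.9 to 65.6 CPM in siNC cells at 48 h; COL1A2 and NCAM1 were at 0 in every library, and their part was not tested. In such bulk RNA, fewer cells of a kind and less RNA per cell cannot be told apart.

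All 45 risers are protein-coding. Their log2 ratios ran from 0.50 to 1.25 at 24 h, with a median of 0.63, and from 0.53 to 1.47 at 48 h, with a median of 0.86. The medians over all 8860 genes past the level filter were -0.002 and -0.019. By the edgeR fit over all genes tested, 45 of 45 were called higher at each time, where 5.93% of all genes were called higher at 24 h and 22.2% at 48 h. Every siANLN library lay above every siNC library for 45 of 45 risers at both times, as for 16.6% of genes past the level filter at 24 h and 28.3% at 48 h. Nothing is read from these counts, since the rule used the same contrast.

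Most of the rises were under 2-fold. At least 2-fold differences were reached by 4 risers at 24 h, OGFR, STX12, RGS19 and ZW10, and by 14 at 48 h, and the same 4 reached them at both times. Rises of that size were seen in 14 of the 8860 genes past the level filter at 24 h and in 43 at 48 h. They were seen in 10 of the 32 risers left out by name at 24 h and in 14 at 48 h. The risers are also few: 88 of the 8860 genes had a log2 ratio of at least 0.5 at 24 h and 319 had one at 48 h. At the edge of the rule, CDK6, HIST1H2BJ and C2CD2 were just inside with smaller log2 ratios of 0.51, 0.50 and 0.50, and TDG, TRAF3 and FNBP1 just outside, with ratios of 0.499, 0.497 and 0.495 at 24 h and 0.82, 0.88 and 0.77 at 48 h.

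**Figure D2:**
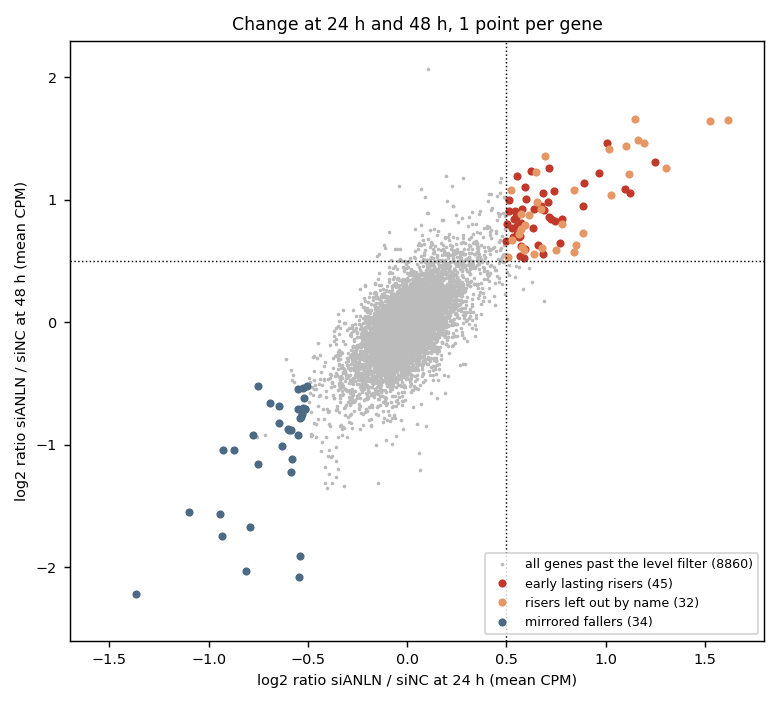
Each point is 1 gene, with the log2 ratio of mean siANLN CPM to mean siNC CPM at 24 h on the x axis and at 48 h on the y axis, for the 8860 genes past the level filter, and dotted lines at 0.5. The 45 risers (red) and the 32 risers left out by name (orange) lie in the upper right corner by the rule, the 34 mirrored fallers (blue) lie in the lower left, and ANLN lies outside the axes.

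A group of 10 risers serves signalling, the cell surface and its matrix. OGFR (ENSG00000060491, chr20:62804835-62814000, plus strand) encodes the opioid growth factor receptor, which binds an enkephalin peptide and slows proliferation. At 24 h OGFR had 94.5, 98.4 and 97.7 CPM in siANLN cells, against 39.6, 41.9 and 41.0 CPM in siNC cells. At 48 h OGFR had 100.3, 107 and 102 CPM in siANLN cells, against 42.1, 41.9 and 41.0 CPM in siNC cells. The libraries of each group lay close together at both times, far from those of the other group, and the means were 2.37-fold apart at 24 h and 2.47-fold apart at 48 h. The edgeR estimates, which use TMM-scaled libraries, were log2 1.25 (SE 0.05) at 24 h and 1.34 (SE 0.05) at 48 h (n = 3 libraries per group, here and for every change). RGS19 (ENSG00000171700, chr20:64073181-64079988, minus strand), which speeds GTP hydrolysis by inhibitory G proteins, was one of the least abundant risers. At 24 h RGS19 had 23.2, 23.4 and 23.6 CPM in siANLN cells, against 8.96, 12.2 and 11.7 CPM in siNC cells. At 48 h RGS19 had 21.9, 21.5 and 21.4 CPM in siANLN cells, against 8.45, 11.1 and 11.01 CPM in siNC cells. The siANLN libraries were nearly level while siNC library 1 was lowest at each time, and no library of one group reached the other; the log2 changes were 1.10 (SE 0.10) at 24 h and 1.12 (SE 0.10) at 48 h.

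TM4SF1 (ENSG00000169908, chr3:149369022-149377865, minus strand) is a multi-pass surface protein abundant on endothelial and many tumour cells. At 24 h TM4SF1 had 71.2, 74.3 and 74.7 CPM in siANLN cells, against 40.9, 38.8 and 39.2 CPM in siNC cells. At 48 h TM4SF1 had 106, 94.9 and 97.0 CPM in siANLN cells, against 43.9, 48.2 and 43.5 CPM in siNC cells. Its siANLN level was higher at 48 h than at 24 h and its siNC level also, by less, and the log2 changes were 0.89 (SE 0.06) at 24 h and 1.17 (SE 0.05) at 48 h. ADAM15 (ENSG00000143537, chr1:155050566-155062775, plus strand), a membrane metalloprotease with a disintegrin domain, was among the 6 risers with the highest siNC level. At 24 h ADAM15 had 134, 130.2 and 135 CPM in siANLN cells, against 80.6, 79.5 and 78.6 CPM in siNC cells. At 48 h ADAM15 had 142, 146 and 149 CPM in siANLN cells, against 86.3, 80.0 and 79.5 CPM in siNC cells. The gap between the groups was many times the spread within them at both times, and the log2 changes were 0.74 (SE 0.04) at 24 h and 0.87 (SE 0.04) at 48 h.

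PCNX3 (ENSG00000197136, chr11:65615773-65637439, plus strand), a large multi-pass membrane protein of the pecanex family, carries one of the printed sites near the end of its 3′ UTR. At 24 h PCNX3 had 175, 171 and 162 CPM in siANLN cells, against 101, 95.9 and 98.8 CPM in siNC cells. At 48 h PCNX3 had 157, 156 and 164 CPM in siANLN cells, against 93.9, 88.5 and 83.3 CPM in siNC cells. All siANLN libraries were above all siNC libraries, with log2 changes of 0.78 (SE 0.04) at 24 h and 0.88 (SE 0.04) at 48 h. Other surface, matrix and signalling members changed less at 24 h. PTPRJ, a receptor-type tyrosine phosphatase, had log2 changes of 0.53 (SE 0.08) at 24 h and 0.81 (SE 0.07) at 48 h. CEMIP2, a cell-surface hyaluronidase, had 0.58 (SE 0.05) at 24 h and 0.96 (SE 0.04) at 48 h, and THBS4, a thrombospondin of the extracellular matrix, had 0.59 (SE 0.12) at 24 h and 0.63 (SE 0.10) at 48 h. INPP5A, which removes a phosphate from inositol trisphosphate, had 0.57 (SE 0.10) at 24 h and 0.58 (SE 0.09) at 48 h, so that its changes at both times were near each other. PELI1, a ubiquitin ligase of Toll-like receptor signalling, had 0.59 (SE 0.10) at 24 h and 0.56 (SE 0.09) at 48 h.

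Another 9 risers work on membranes and their traffic. STX12 (ENSG00000117758, chr1:27773183-27824452, plus strand) is a SNARE protein of recycling endosomes. At 24 h STX12 had 28.8, 26.2 and 26.8 CPM in siANLN cells, against 12.7, 13.7 and 11.2 CPM in siNC cells. At 48 h STX12 had 26.4, 27.6 and 28.1 CPM in siANLN cells, against 14.3, 13.1 and 12.2 CPM in siNC cells. The levels of each group hardly differed between the times, and the log2 changes were 1.12 (SE 0.09) at 24 h and 1.09 (SE 0.09) at 48 h. For all genes tested, the shares that passed the test were 5.93% higher and 4.86% lower at 24 h. At 48 h they were 22.2% higher and 21.3% lower. Among 15 other syntaxins tested, 4 passed the test in the higher direction and 0 in the lower at 24 h, and 5 higher and 1 lower at 48 h. STX2, the one of these with the largest change, had a log2 change of 0.47 (SE 0.10, edgeR adjusted p = 0.000579) at 24 h and 0.63 (SE 0.09, edgeR adjusted p = 4.89e-10) at 48 h, and was singled out after its value was seen.

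ZDHHC16 (ENSG00000171307, chr10:97446131-97457370, plus strand) attaches palmitate to cysteines of other proteins. At 24 h ZDHHC16 had 57.2, 58.3 and 58.6 CPM in siANLN cells, against 33.7, 33.3 and 41.0 CPM in siNC cells. At 48 h ZDHHC16 had 50.9, 48.4 and 49.2 CPM in siANLN cells, against 27.3, 26.2 and 25.2 CPM in siNC cells. One siNC library at 24 h was above the other 2 but below every siANLN library, and the log2 changes were 0.70 (SE 0.07) at 24 h and 0.95 (SE 0.06) at 48 h. ZDHHC18, a palmitoyltransferase of the same family and the only relative by name that is itself a riser, had log2 changes of 0.56 (SE 0.07) at 24 h and 0.76 (SE 0.07) at 48 h. Of 18 relatives in that family, ZDHHC18 included, 2 passed the test as higher at 24 h, and 6 as higher and 5 as lower at 48 h. The shares over all genes tested were 5.93% higher at 24 h, and 22.2% higher and 21.3% lower at 48 h.

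BICD2 (ENSG00000185963, chr9:92711363-92764812, minus strand) is an adaptor that links cargo to the motor dynein. At 24 h BICD2 had 142, 140.4 and 139.9 CPM in siANLN cells, against 90.3, 83.2 and 89.3 CPM in siNC cells. At 48 h BICD2 had 136, 136 and 136 CPM in siANLN cells, against 67.2, 67.0 and 62.3 CPM in siNC cells. The siANLN libraries were almost level at each time, the siNC libraries lower at 48 h than at 24 h, and the log2 changes were 0.68 (SE 0.04) at 24 h and 1.09 (SE 0.04) at 48 h. NUDCD3 (ENSG00000015676, chr7:44379121-44490880, minus strand), a co-chaperone that keeps dynein's intermediate chain stable, holds the 8-base site printed above. At 24 h NUDCD3 had 146, 145 and 153 CPM in siANLN cells, against 98.6, 90.6 and 96.1 CPM in siNC cells. At 48 h NUDCD3 had 141, 140.4 and 138 CPM in siANLN cells, against 71.6, 76.1 and 73.5 CPM in siNC cells. Its groups did not overlap, and its log2 changes were 0.64 (SE 0.04) at 24 h and 0.96 (SE 0.04) at 48 h.

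VOPP1 (ENSG00000154978, chr7:55436056-55572988, minus strand), a vesicle-associated membrane protein, holds a site of the same 8 letters. At 24 h VOPP1 had 143, 152 and 142 CPM in siANLN cells, against 99.5, 101 and 101 CPM in siNC cells. At 48 h VOPP1 had 121, 119 and 117 CPM in siANLN cells, against 66.1, 66.3 and 67.0 CPM in siNC cells. The lowest siANLN library was above the highest siNC library at both times, and the log2 changes were 0.54 (SE 0.04) at 24 h and 0.88 (SE 0.04) at 48 h. The other members of this kind are given by their log2 changes. TBC1D9, which carries a Rab GTPase-activating domain, had 0.68 (SE 0.09) at 24 h and 0.59 (SE 0.07) at 48 h, one of the few risers with the smaller value at 48 h. ZFYVE21, which binds a phosphoinositide through its FYVE domain, had 0.57 (SE 0.10) at 24 h and 0.73 (SE 0.08) at 48 h, and C2CD2, a protein with a lipid-binding C2 domain, had 0.50 (SE 0.07) at 24 h and 0.70 (SE 0.06) at 48 h.

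Cell division and the cytoskeleton are represented by 4 further risers. ZW10 (ENSG00000086827, chr11:113733187-113773811, minus strand) is a kinetochore protein of the spindle checkpoint that also acts in traffic between Golgi and endoplasmic reticulum. At 24 h ZW10 had 66.5, 71.7 and 66.2 CPM in siANLN cells, against 35.7, 33.1 and 32.9 CPM in siNC cells. At 48 h ZW10 had 57.8, 56.9 and 60.8 CPM in siANLN cells, against 20.8, 21.6 and 21.1 CPM in siNC cells. Its siNC level at 48 h was well below that at 24 h, and its log2 changes of 1.01 (SE 0.06) at 24 h and 1.50 (SE 0.06) at 48 h include the largest of all risers at 48 h. CDK6 (ENSG00000105810, chr7:92604921-92836594, minus strand), the kinase that acts with D-type cyclins early in the cell cycle, was the riser with the highest siNC CPM. At 24 h CDK6 had 454, 436 and 446 CPM in siANLN cells, against 327, 305 and 305 CPM in siNC cells. At 48 h CDK6 had 536, 515 and 491 CPM in siANLN cells, against 260.4, 253 and 257 CPM in siNC cells. The siANLN level was higher and the siNC level lower at 48 h than at 24 h, which gave log2 changes of 0.51 (SE 0.04) at 24 h and 1.04 (SE 0.03) at 48 h.

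MICAL2, a monooxygenase that oxidises actin and takes filaments apart, had log2 changes of 0.63 (SE 0.05) at 24 h and 1.27 (SE 0.04) at 48 h. Its level at 24 h was 95.2 ± 4.87 CPM in siANLN cells and 61.7 ± 2.46 CPM in siNC cells, and at 48 h it was 142 ± 5.62 CPM in siANLN cells and 60.6 ± 0.349 CPM in siNC cells (mean ± SD, n = 3), so that the gap between the groups was wider at 48 h. ARHGAP19, which switches off small GTPases and acts in mitosis, had log2 changes of 0.55 (SE 0.07) at 24 h and 0.90 (SE 0.06) at 48 h. Of its exonic bases 24.1% are shared with the readthrough gene ARHGAP19-SLIT1 on the same strand, so its counts are uncertain. Of the other risers none shares over 10% of its exonic bases with another gene.

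A group of 9 risers acts on chromatin and transcription. SETD7 (ENSG00000145391, chr4:139495941-139606699, minus strand) methylates lysines of histones and of other proteins. At 24 h SETD7 had 64.4, 63.2 and 66.3 CPM in siANLN cells, against 40.6, 37.5 and 40.0 CPM in siNC cells. At 48 h SETD7 had 67.9, 67.4 and 66.1 CPM in siANLN cells, against 25.7, 28.9 and 29.3 CPM in siNC cells. The siANLN level was about the same at both times and the siNC level lower at 48 h, and the log2 changes were 0.72 (SE 0.06) at 24 h and 1.30 (SE 0.06) at 48 h. PRMT6 (ENSG00000198890, chr1:107056679-107067636, plus strand), an arginine methyltransferase of histones, is another. At 24 h PRMT6 had 75.5, 78.0 and 76.4 CPM in siANLN cells, against 45.5, 44.8 and 50.5 CPM in siNC cells. At 48 h PRMT6 had 64.8, 64.8 and 64.1 CPM in siANLN cells, against 32.4, 33.5 and 32.2 CPM in siNC cells. The groups did not overlap, with log2 changes of 0.71 (SE 0.06) at 24 h and 1.02 (SE 0.06) at 48 h. Of 6 other PRMT genes tested, 0 passed the test at 24 h and 3 did at 48 h, all higher: PRMT1, PRMT3 and PRMT5, with log2 changes of 0.12 (SE 0.03), 0.19 (SE 0.05) and 0.13 (SE 0.04). Among all genes tested, 5.93% were higher and 4.86% lower at 24 h, and 22.2% higher and 21.3% lower at 48 h.

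KDM2B (ENSG00000089094, chr12:121429097-121581015, minus strand) removes methyl groups from histones and brings Polycomb complexes to CpG islands. At 24 h KDM2B had 43.8, 38.2 and 40.9 CPM in siANLN cells, against 25.2, 24.8 and 27.1 CPM in siNC cells. At 48 h KDM2B had 36.7, 36.8 and 36.7 CPM in siANLN cells, against 20.2, 17.0 and 19.7 CPM in siNC cells. The groups did not overlap, its log2 changes were 0.67 (SE 0.07) at 24 h and 0.99 (SE 0.07) at 48 h, and the windows of its 2 printed sites overlap on the genome. ZSCAN29 (ENSG00000140265, chr15:43358172-43371025, minus strand) is a zinc finger protein with a SCAN domain. At 24 h ZSCAN29 had 59.2, 52.4 and 50.7 CPM in siANLN cells, against 32.6, 33.8 and 32.6 CPM in siNC cells. At 48 h ZSCAN29 had 52.4, 51.4 and 51.6 CPM in siANLN cells, against 28.4, 26.0 and 31.2 CPM in siNC cells. One siANLN library at 24 h stood above the other 2, all of them above the siNC libraries, and the log2 changes were 0.71 (SE 0.07) at 24 h and 0.90 (SE 0.06) at 48 h.

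HIST1H2BD (ENSG00000158373, chr6:26158146-26171349, plus strand) encodes a core histone of the H2B family, whose genes are near-identical copies, so how reads were shared among them is uncertain. At 24 h HIST1H2BD had 15.9, 15.1 and 22.1 CPM in siANLN cells, against 9.78, 12.8 and 12.4 CPM in siNC cells. At 48 h HIST1H2BD had 13.4, 14.1 and 16.4 CPM in siANLN cells, against 8.03, 7.43 and 6.44 CPM in siNC cells. The third siANLN library was the highest at each time, and no siNC library reached any of them. With log2 changes of 0.60 (SE 0.12) at 24 h and 1.04 (SE 0.12) at 48 h it had the widest errors of the 45 risers at both times. HIST1H2BJ, the other H2B gene, had 0.51 (SE 0.09) at 24 h and 0.84 (SE 0.11) at 48 h and carries the same uncertainty. HKR1, a KRAB zinc finger gene listed under the newer symbol ZNF875 at 48 h, had 0.77 (SE 0.09) at 24 h and 0.68 (SE 0.09) at 48 h. ATF1, a transcription factor of the CREB family, had 0.66 (SE 0.08) at 24 h and 0.67 (SE 0.08) at 48 h. BCL7A, a subunit of SWI/SNF chromatin remodelling complexes, had 0.57 (SE 0.07) at 24 h and 0.66 (SE 0.11) at 48 h, and its siNC level was 33.0 CPM at 24 h and 10.01 CPM at 48 h, the one riser whose control level differed over 2-fold between the tables.

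Another 7 risers handle RNA or protein, among them DCP2 (ENSG00000172795, chr5:112976702-113020970, plus strand), the enzyme that removes the cap of mRNAs before they are degraded. At 24 h DCP2 had 127, 122 and 116 CPM in siANLN cells, against 74.6, 72.9 and 73.4 CPM in siNC cells. At 48 h DCP2 had 141, 132 and 145 CPM in siANLN cells, against 78.7, 78.9 and 75.0 CPM in siNC cells. Both times showed a clear gap between the groups, with log2 changes of 0.73 (SE 0.05) at 24 h and 0.88 (SE 0.04) at 48 h. DCP1A, the partner of DCP2 in decapping and its only relative by name that was tested, went the other way, with log2 changes of -0.22 (SE 0.05, edgeR adjusted p = 0.00141) at 24 h and -0.31 (SE 0.05, edgeR adjusted p = 2.83e-08) at 48 h. Of 13 genes of the RNA interference machinery, none of them a riser, 3 were higher and 1 lower at 24 h, and 5 were higher and 2 lower at 48 h. Over all genes tested, 5.93% were higher and 4.86% lower at 24 h, and 22.2% higher and 21.3% lower at 48 h, and the list's median log2 changes were 0.06 at 24 h and 0.09 at 48 h, against -0.0052 and -0.0027 over all genes.

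GLE1, which acts in mRNA export, had log2 changes of 0.64 (SE 0.05) at 24 h and 0.81 (SE 0.04) at 48 h, C9orf78, a spliceosome-associated protein, had 0.57 (SE 0.05) at 24 h and 0.85 (SE 0.05) at 48 h, and MEX3D, an RNA-binding protein, had 0.54 (SE 0.06) at 24 h and 0.94 (SE 0.06) at 48 h. RPL26L1, a close copy of the ribosomal protein gene RPL26 whose reads may be shared with it, had 0.55 (SE 0.06) at 24 h and 1.23 (SE 0.07) at 48 h. The level of RPL26L1 was 65.0 ± 3.99 CPM in siANLN cells and 44.3 ± 2.97 CPM in siNC cells at 24 h, and 53.1 ± 4.73 CPM in siANLN cells and 23.2 ± 1.22 CPM in siNC cells at 48 h. KLHDC10 (ENSG00000128607, chr7:130070510-130135720, plus strand), a kelch-repeat substrate receptor of cullin ubiquitin ligases, holds 2 sites of CGGAGAA. At 24 h KLHDC10 had 56.1, 52.2 and 53.05 CPM in siANLN cells, against 35.7, 37.0 and 38.8 CPM in siNC cells. At 48 h KLHDC10 had 58.0, 56.0 and 49.0 CPM in siANLN cells, against 30.8, 32.8 and 37.0 CPM in siNC cells. Its groups did not overlap, its log2 changes were 0.53 (SE 0.06) at 24 h and 0.73 (SE 0.06) at 48 h, and KLHDC3, another kelch-repeat receptor of this kind, had 0.52 (SE 0.05) at 24 h and 0.95 (SE 0.05) at 48 h.

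Another 4 risers are enzymes of sugar, redox and related metabolism. GXYLT1 (ENSG00000151233, chr12:42081845-42144879, minus strand) adds xylose to O-linked glucose on Notch receptors. At 24 h GXYLT1 had 64.3, 63.6 and 69.3 CPM in siANLN cells, against 37.5, 35.4 and 34.0 CPM in siNC cells. At 48 h GXYLT1 had 56.8, 61.2 and 55.1 CPM in siANLN cells, against 30.5, 31.1 and 27.9 CPM in siNC cells. All siANLN libraries lay above all siNC libraries, and the log2 changes were 0.89 (SE 0.06) at 24 h and 0.99 (SE 0.06) at 48 h. PGM2L1 (ENSG00000165434, chr11:74330318-74398473, minus strand) makes a glucose bisphosphate that serves phosphoglucomutase as a cofactor. At 24 h PGM2L1 had 21.1, 18.4 and 19.6 CPM in siANLN cells, against 13.2, 12.1 and 10.1 CPM in siNC cells. At 48 h PGM2L1 had 33.3, 31.8 and 32.9 CPM in siANLN cells, against 18.2, 14.6 and 13.7 CPM in siNC cells. At 48 h the siNC libraries were spread more widely than the siANLN libraries, without reaching them, and the log2 changes were 0.74 (SE 0.10) at 24 h and 1.11 (SE 0.08) at 48 h.

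HSDL2 (ENSG00000119471, chr9:112379937-112472410, plus strand), a dehydrogenase-like protein, carries a printed site. At 24 h HSDL2 had 62.9, 55.9 and 62.2 CPM in siANLN cells, against 45.1, 37.3 and 39.9 CPM in siNC cells. At 48 h HSDL2 had 70.5, 65.7 and 69.7 CPM in siANLN cells, against 41.2, 44.2 and 40.6 CPM in siNC cells. Its log2 changes were 0.57 (SE 0.06) at 24 h and 0.74 (SE 0.05) at 48 h, without overlap between the groups. PRDX4, a peroxiredoxin of the endoplasmic reticulum, had log2 changes of 0.60 (SE 0.05) at 24 h and 1.14 (SE 0.05) at 48 h, with a level of 101 ± 4.29 CPM in siANLN cells and 67.1 ± 3.98 CPM in siNC cells at 24 h, and of 79.9 ± 1.39 CPM in siANLN cells and 37.2 ± 2.08 CPM in siNC cells at 48 h.

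**Figure D3:**
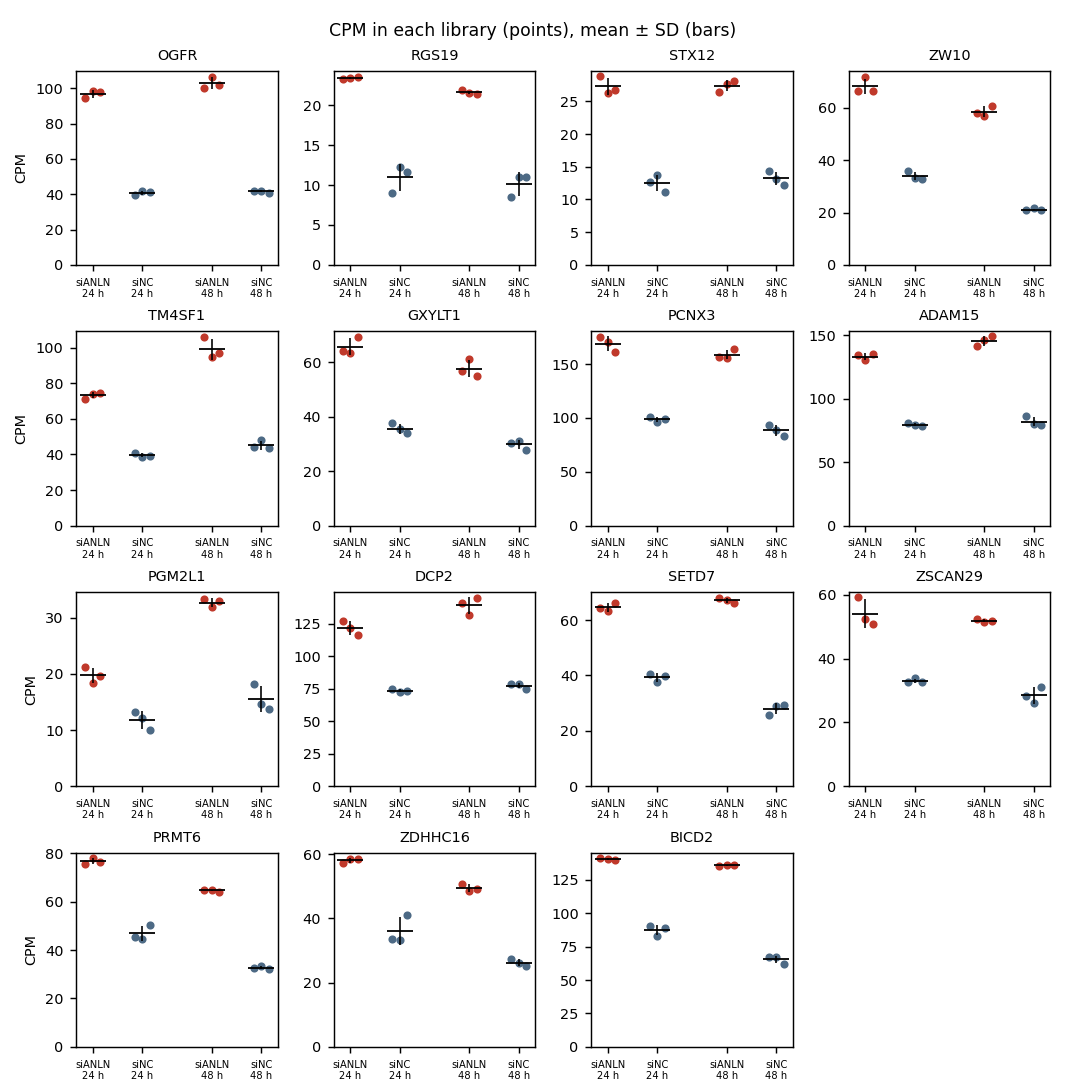
CPM in each library for 15 of the 16 risers with the largest smaller-of-both log2 ratio, with siANLN libraries in red and siNC libraries in blue at 24 h and 48 h, and horizontal and vertical bars for the mean ± SD of 3 libraries. In every panel the siANLN points lie above the siNC points at both times, as for OGFR with means of 96.9 and 40.8 CPM at 24 h.

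The change was larger at 48 h than at 24 h by the log2 ratio in 38 of the 45 risers, 84.4%. The share was 45.9% over all genes past the level filter, and 25 of the 32 risers left out by name. These ratios are signed. In 31 of the 34 mirrored fallers the log2 ratio was lower at 48 h, so that these too lay further from 0. As the rule used both changes, these counts describe the sets. The difference of the changes, 48 h minus 24 h, in 1 edgeR model over all 12 libraries ran from -0.08 to 0.69 with a median of 0.28. It was over 2 SE above 0 in 32 risers and within 2 SE of 0 in 13. RPL26L1 had the largest, 0.69 (SE 0.09), followed by MICAL2 with 0.66 (SE 0.07), SETD7 with 0.59 (SE 0.09), PRDX4 with 0.56 (SE 0.08), CDK6 with 0.54 (SE 0.04) and ZW10 with 0.51 (SE 0.09). At the other end TBC1D9 had -0.08 (SE 0.11) and HKR1 -0.07 (SE 0.13), each smaller than its error. Each time was deposited as its own table, so time and the making of the table cannot be told apart.

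Control levels also differed between the times, but here too time and the making of the tables cannot be told apart. The deposited counts list 58735 gene IDs at 24 h and 38318 gene IDs at 48 h. ARHGAP19-SLIT1, which shares exonic bases with ARHGAP19, had 0.02 CPM in siNC cells at 24 h and 9.02 CPM at 48 h. The part of the gene lists in the control levels was not tested. In siNC cells 30 of the 45 risers had a higher CPM at 24 h than at 48 h, 66.7%, against 46.8% of genes past the level filter. So did 24 of the 32 risers left out by name, 75.0%, and 13 of the 34 mirrored fallers, 38.2%. The part of the control level in the differences of the changes was not tested. ZW10, SETD7, PRMT6, BICD2 and CDK6, described above, had lower siNC levels at 48 h. Their siANLN levels at 48 h were lower too in ZW10, PRMT6 and BICD2 and higher in SETD7 and CDK6. TM4SF1, PGM2L1, ADAM15 and DCP2 had higher levels at 48 h in both siANLN and siNC cells.

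**Figure D4:**
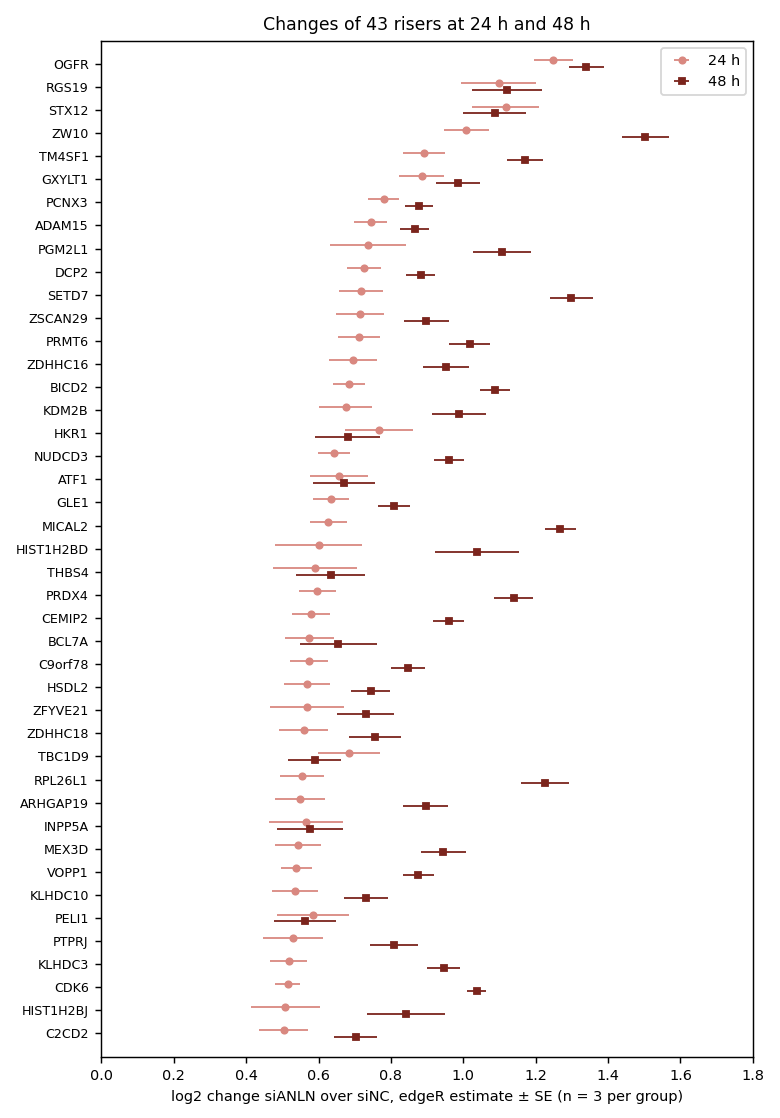
The edgeR log2 change of siANLN over siNC with its standard error for 43 of the 45 risers, at 24 h (light circles) and 48 h (dark squares), ordered from the largest to the smallest of the lower log2 ratios. Changes at 24 h run from 0.50 to 1.25 and at 48 h from 0.56 to 1.50, and the squares of most risers lie to the right of their circles.

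The risers were compared with all genes past the level filter in features of their annotation, which the rule did not use. Their median gene spanned 51270 bases, against 35320 bases, while transcripts had medians of 3750 and 3930 bases and 8 and 9 exons, and the 3′ UTR medians were 1451 and 1532 bases. The GC content of the 3′ UTR had medians of 40.8% in the risers and 42.0% in all genes past the filter. The control level, in contrast, entered the rule through the level filter and the ratio, and is given as a description. Some risers passed the limit of 10 CPM only through their siANLN libraries. HIST1H2BD (7.30 CPM) and HIST1H2BJ (8.98 CPM) had siNC means below it at 48 h, and THBS4 (9.87 CPM) at 24 h. Per length, the risers' median siNC level was 7.20 FPKM at 24 h and 5.87 FPKM at 48 h, against 10.1 and 9.95 FPKM over genes past the filter. RPL26L1 (38.4 FPKM), PRDX4 (35.5 FPKM) and KLHDC3 (32.9 FPKM) had the highest siNC levels among the risers at 24 h. FPKM levels are compared within 1 table only. GLE1, with siNC levels of 66.3 CPM at 24 h and 63.1 CPM at 48 h, had 19.0 FPKM at 24 h and 5.87 FPKM at 48 h. The features of risers and of other genes overlapped throughout, and no test was made.

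The risers lie on 17 chromosomes, and 7 pairs of them are less than 2 Mb apart, the closest being ARHGAP19 and ZDHHC16, with 153458 bases between them. BCL7A and KDM2B are 438407 bases apart, and OGFR and RGS19, which led the changes, are 1259181 bases apart on chromosome 20. Such pairs were not counted among other genes past the level filter, so nothing is read from the 7 pairs. Genes related by name to the 16 leading risers were looked up as well, through symbol stems that 13 of the 16 have. At 24 h 6 of 100 such relatives tested passed the test as higher and 1 as lower, with a median log2 change of -0.005, as for all genes tested. At 48 h 25 of 97 were higher and 17 lower, with a median log2 change of -0.018. Of all genes tested, 5.93% were higher and 4.86% lower at 24 h, and 22.2% were higher and 21.3% lower at 48 h, so the relatives' shares called higher lay near the background.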

How the data were processed

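The submitters' processing notes name cutadapt 1.18, STAR 2.7.3a, featureCounts and DESeq2 1.44.0 as the authors' tools and GRCh38 as the build. The strand setting of the kit and of the counting is not given in the sources used here, so reads of overlapping genes on opposite strands cannot be told apart. The deposited tables, one pair per time, hold raw counts of reads for each gene, which are whole numbers, and FPKM, in which the authors scaled fragments by gene length and library total. IDs repeated at 48 h (202, with identical values) were kept once. CPM is the deposited count over the library's total.

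Changes were fitted per time with edgeR 4.0.16 in R 4.3.3 (TMM, filterByExpr, robust quasi-likelihood test, two-sided, Benjamini-Hochberg adjustment over all genes tested, threshold 0.05), without covariates, after a check on simulated counts. The difference between the times used 1 model over 12 libraries and the IDs of both tables. Other tools (DESeq2 1.42.0 on counts, limma 3.58.1 on log2 FPKM with pseudocounts of 0.1 and 1), scalings, filters and left-out libraries were tried as alternatives. The words were searched on the transcript strand of GENCODE 29 (GRCh38) protein-coding transcripts, in the longest 3′ UTR of each gene. TCGGAGA and CGGAGAA overlap by 6 letters, and so do TTCCCAA and TCCCAAA. Intervals are exact Clopper-Pearson intervals and cover counting error only.

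The risers, the words and the gene lists (RNA interference machinery, squamous markers, markers of other cell types, and others that hold none of the risers) were chosen with earlier results of these data known. Values in every library are given for the 16 risers with the largest smaller-of-both log2 ratio, the 6 with the highest siNC CPM and those with a rising word in the 3′ UTR. Other risers are given by their changes, and 2 risers are counted in the set but not reported here by name.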

Additional observations from a re-analysis of the deposited data

How the results depend on the processing

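The number of risers depended on the threshold. It was 101 at a log2 ratio of at least 0.4, 23 at 0.6, and 18 when the lowest siANLN library was set against the highest siNC library, in place of 45. Leaving out 1 library at a time gave 44 to 51 genes, 41 to 45 of them among the 45. TMM scaling gave 46, FPKM in place of CPM 46, and level limits of 5 and 20 CPM 52 and 34. An alternative chosen after seeing the data, leaving out HKR1 for its symbol ZNF875 at 48 h, gave 44. All 45 risers were called higher at both times under every other scaling, filter and tool run, and without each library (45 to 45), except that limma on FPKM called 43 at 24 h. It lost HIST1H2BD (adjusted p 0.1 and 0.096 with pseudocounts of 0.1 and 1) and ZFYVE21 (adjusted p 0.052 and 0.056). Of 1170 values of single risers under the alternatives, 1166 kept their side of the threshold and 0 turned their direction. The rule used the same contrast on the same libraries, so these counts of calls were nearly fixed beforehand. Nothing is read from them. The share of risers with a rising word was 28.9% over all annotated 3′ UTRs, against 4.85% of genes past the level filter, and 23.4 to 29.8% without each library.

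Replicate numbers recur in all groups. Between siANLN and siNC libraries of the same time and number, correlations of deviations lay between -0.08 and 0.082. Between those of unlike number they lay between -0.129 and 0.084. With 3 libraries a group this cannot show whether same-numbered libraries shared a transfection or preparation, and libraries of different times were not compared. With the replicate number as a block, 45 risers were called higher at each time, and over all genes the calls moved to 1772 with the block, against 1585 without it, at 24 h, and to 7355, against 7402, at 48 h.

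HIST1H2BD, which had the widest errors, had 15.9, 15.1 and 22.1 CPM in siANLN cells at 24 h and a mean of 7.30 CPM in siNC cells at 48 h, and the part of depth in its error was not tested. The sets rest on 3 libraries a group and on 1 siRNA per arm.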

Other observations

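All 7-letter words found in the longest 3′ UTR of at least 5 risers (7961 words) were ranked by the ratio of their share in the risers to their share in genes past the level filter. TCGGAGA ranked 3 with a ratio of 8.25 and CGGAGAA ranked 7 with a ratio of 5.87. TCCGATC ranked 1, in 5 of 45 risers (11.1%) against 1.11% of genes past the filter, and CTCCGAT ranked 2, in 6 of 45 (13.3%) against 1.46%. The largest difference of shares was that of GGAGAAA, which overlaps CGGAGAA, in 25 of 45 risers (55.6%) against 24.2% of genes past the filter. Ranked by that difference, TCGGAGA stood at 42 and CGGAGAA at 122, well below their ranks by ratio. With so many words and so few genes these ranks are a description, and no test was made.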
